A study of Homo sapiens with 6 samples.

Results

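Small nucleolar RNA (snoRNA) host genes are transcribed by RNA polymerase II (Pol II) and carry snoRNAs in their introns. Splicing and trimming release the snoRNAs, which then guide methylation or pseudouridylation of ribosomal RNA, or its cleavage, in the nucleolus. Many host transcripts have little or no protein-coding capacity, turn over quickly, and belong to the TOP class, whose transcripts begin with a C and a run of pyrimidines. The host genes thereby tie Pol II transcription to the ribosomal RNA that RNA polymerase I (Pol I) makes. The 6 noncoding host genes SNHG3, SNHG12, GAS5, SNHG1, SNHG5 and SNHG8 are described here. Their peaks were taken from fixed windows on hg19, given to the nearest kb, with 5 kb added on both sides. These windows span 86 kb and hold 20 of the 84817 listed peaks of the series, of which no peak fell in more than 1 window.

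The peaks come from chromatin immunoprecipitation with sequencing in LNCaP, an androgen-responsive human prostate cancer line. Cells received 1 µM BMH-21 for 6 h or its solvent DMSO as control. BMH-21 is a DNA intercalator and an inhibitor of Pol I. The study asks where Pol I (antibody C-1) and Pol II with phosphoserine 5 in its C-terminal domain (antibody 4H8) bind with and without the inhibitor. Pol II below means what antibody 4H8 bound, and its specificity for the phosphorylated form was not checked here. Each antibody and treatment has 1 library, so no difference has a replicate error, a test or a p-value. The files hold peaks and no read counts, so read depth is unknown, and the identity of the cells was not checked against marker genes. The lists hold 1932 peaks for BMH-21 Pol I, 42547 for DMSO Pol I, 11540 for BMH-21 Pol II and 28798 for DMSO Pol II. Their lowest score is 50, so an empty window may still have held weaker or unlisted binding. The peak names carry running numbers that reach 15755 for BMH-21 Pol I and 55470 for DMSO Pol I. For Pol II they reach 50244 in BMH-21 and 55439 in DMSO. Most numbered peaks are thus unlisted after BMH-21, and a smaller share in DMSO, so window counts of the treatments cannot be compared as amounts of binding.

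In RefSeq's GRCh38.p14 table, SNHG3 holds 2 nested snoRNA genes (SNORA73A and SNORA73B, also called U17), SNHG12 holds 4 and GAS5 holds 11. SNHG1 holds 9, among them SNORD22 and SNORD25 to SNORD31, SNHG5 holds the pair SNORD50A and SNORD50B, and SNHG8 holds SNORA24. Protein-coding genes overlap some of these host genes and are next in order to the others, at distances not measured here. RCC1, which encodes the exchange factor of the GTPase Ran, overlaps SNHG3 in that table, ZBTB37 overlaps GAS5, and TRNAU1AP overlaps the end of SNHG12. SNHG1 lies between WDR74, a ribosome assembly factor, and SLC3A2, the heavy chain of amino acid transporters. SNHG5 lies between SYNCRIP and HTR1E, and SNHG8 between NDST3 and PRSS12. Where a neighbour reaches into a window, a peak can belong to it as well as to the host gene. Which windows a neighbour reaches, and whether a peak lies on an exon or an intron, was not determined, since no hg19 annotation was used. RefSeq gives lengths of 1062 bp for SNHG8 and 1727 bp for SNHG5, against gene windows of 3 kb. A peak that touches a gene window need not touch the gene.

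The 100 bases around each annotated start are shown because the transcript's first bases define the TOP class. They run from 50 bases before the start to 50 bases from it, 5′ to 3′ along the gene, from RefSeq's GRCh38.p14 table, which matched all 6 genes with 1 start each. Their GRCh38.p14 positions are not comparable with the hg19 positions of the peaks. Capitals mark a C followed by at least 4 pyrimidines that begins within 10 bases of the start.
SNHG3, chr1:28505893-28505992, plus strand: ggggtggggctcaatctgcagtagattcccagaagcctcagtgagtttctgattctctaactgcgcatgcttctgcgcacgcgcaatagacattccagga
SNHG12, chr1:28581824-28581923, minus strand: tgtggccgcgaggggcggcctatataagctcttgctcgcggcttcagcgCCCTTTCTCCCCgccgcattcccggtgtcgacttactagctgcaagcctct
GAS5, chr1:173868996-173869095, minus strand: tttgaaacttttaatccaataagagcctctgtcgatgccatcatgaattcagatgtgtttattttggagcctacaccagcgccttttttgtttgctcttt
SNHG1, chr11:62855836-62855935, minus strand: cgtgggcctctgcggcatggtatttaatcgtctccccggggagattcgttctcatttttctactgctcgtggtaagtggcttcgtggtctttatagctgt
SNHG5, chr6:85678684-85678783, minus strand: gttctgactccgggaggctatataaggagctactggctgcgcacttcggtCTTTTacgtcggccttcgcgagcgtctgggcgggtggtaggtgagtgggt
SNHG8, chr4:118278712-118278811, plus strand: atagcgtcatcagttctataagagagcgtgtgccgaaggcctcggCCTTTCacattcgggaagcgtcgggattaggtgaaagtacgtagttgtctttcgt

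The pyrimidine run was found in SNHG12 (12 bases long, from 1 base before the annotated start), SNHG5 (5 bases long, from the start) and SNHG8 (6 bases long, from 5 bases before it). SNHG3, GAS5 and SNHG1 had none there. RefSeq lists several transcripts for GAS5, SNHG1 and SNHG12, and the table gives 1 start per gene. A run at another start would be missed, so its absence here does not show that a gene lies outside the TOP class. The run was present in 3 of the 6 genes, in 11 of 15 other noncoding host genes that the table holds (73.3%), and in 33.3% of all 27305 gene starts. The letters TATAAA, on either strand anywhere in the 300 bases of the table, occurred in SNHG1 alone of the 6, after the start, and in 12.0% of all starts. The shorter TATAA on either strand in the 50 bases before the start, letters chosen after the sequences were seen, occurred in SNHG12, SNHG5 and SNHG8 and in 6.49% of all starts. It was in 3 of the 15 other hosts (20.0%). The CpG content of the 300 bases was 1.67 per 100 bases in GAS5, 4.33 in SNHG3 and 9.67 to 13.7 in the others, against a median of 4.67 over all starts. The same 3 genes carried both the pyrimidine run and TATAA, and the other 3 carried neither. Since TATAA was chosen on these same sequences, this match is no independent support for a grouping of the genes. These letters describe the sequence and are not shown to be used.

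With flanks, Pol I peaks were listed in 2 of the 6 windows after BMH-21 and in all 6 in DMSO. Without flanks, a Pol I peak touched the gene window of 2 genes after BMH-21 and of 5 in DMSO, all but GAS5. BMH-21 Pol I had 3 peaks covering 868 bp, at SNHG3 and SNHG5, and DMSO Pol I had 12 peaks covering 9549 bp. Pol II peaks were sparser in the DMSO cells than Pol I peaks. BMH-21 Pol II had 2 peaks covering 442 bp, both at SNHG3, and DMSO Pol II had 3 peaks covering 2138 bp, at GAS5, SNHG1 and SNHG8. For Pol I, all 3 peaks in BMH-21 and 8 of the 12 in DMSO touched a gene window itself. For Pol II, 0 of 2 BMH-21 peaks and 0 of 3 DMSO peaks did. The gene windows make up 26 of the 86 kb, and 2 or 3 peaks are too few to show that Pol II peaks avoid them. No peak of a window shared a base with a listed peak of the same antibody in the other treatment. Over the whole lists, too, 0 Pol I and 0 Pol II peaks of BMH-21 shared a base with a DMSO peak of the same antibody. The deposited lists may therefore be selections from which peaks common to both treatments were left out. If so, a host gene bound in both treatments would have no listed peak at that place in either list, and each comparison of treatments here covers listed peaks alone. The windows of SNHG12, GAS5, SNHG1 and SNHG8 held no listed peak after BMH-21 from either antibody, although a BMH-21 Pol II peak lay 1010 bp outside the GAS5 window and another 1728 bp outside the SNHG1 window.

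**Figure D1:**
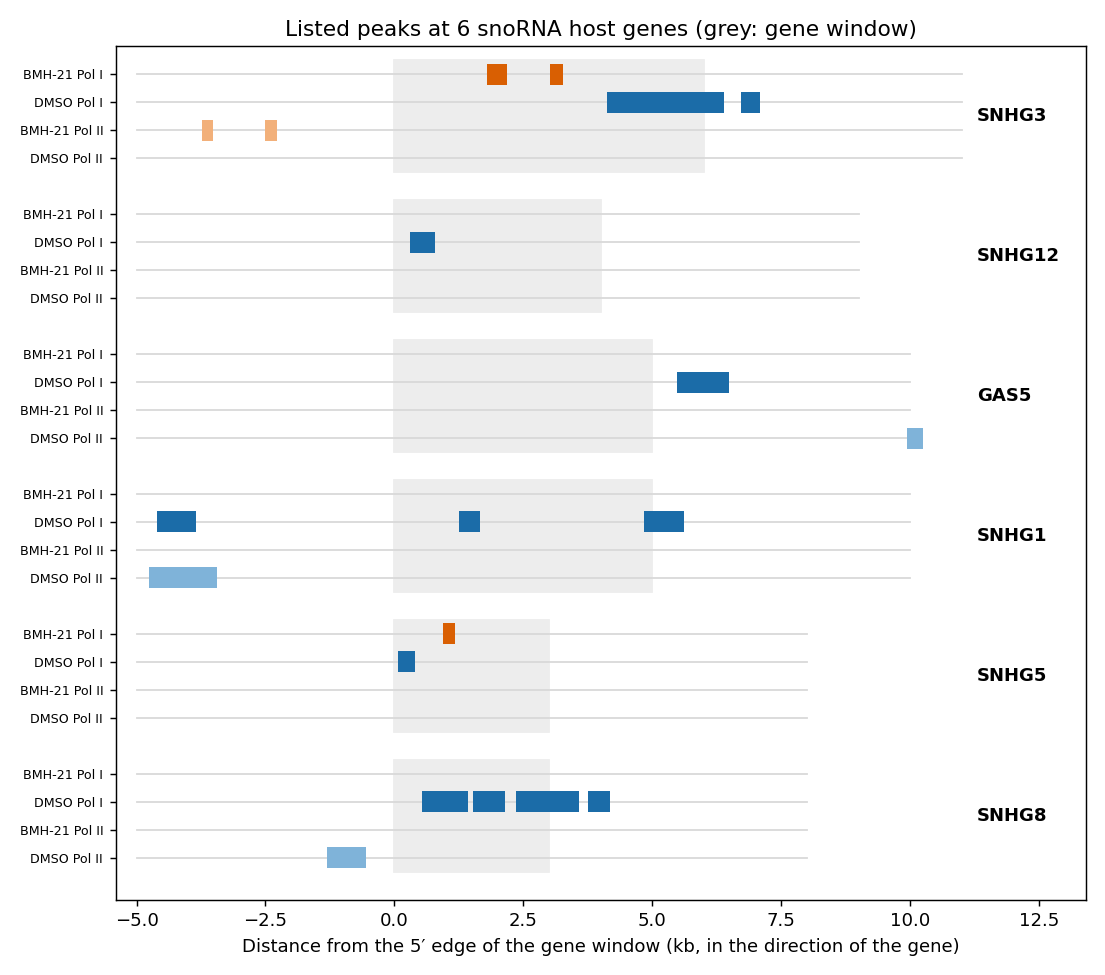
Listed peaks at the 6 host genes, drawn to scale. The x axis is the distance in kb from the 5′ edge of the gene window along the gene. Grey areas are the gene windows, given to the nearest kb, grey lines the windows with 5 kb added on both sides, and coloured bars the peaks of each library. DMSO Pol I has peaks in all 6 windows with flanks, BMH-21 Pol I at SNHG3 and SNHG5, and no Pol II peak touches a grey area.

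For scale, the genome between the first and last listed peak of each chromosome was cut into 209892 tiles of 14333 bp, the mean length of the windows. A BMH-21 Pol I peak was listed in 2 of 6 windows, against 0.757% of tiles. A DMSO Pol I peak was listed in 6 of 6 windows, against 17.0% of tiles. For Pol II the counts were 1 of 6 windows in BMH-21, against 3.9% of tiles, and 3 of 6 windows in DMSO, against 8.78% of tiles. Without flanks, 0 of 6 gene windows touched a Pol II peak in BMH-21, against 1.46% of tiles of gene-window length. In DMSO it was 0 of 6, against 3.62%. At such low shares 0 of 6 is the likeliest count, so without flanks the Pol II comparison shows no direction. The tiles include stretches without genes, and windows around other expressed genes were not measured here. The 6 genes were also chosen with earlier results of these data known, so their choice may have favoured windows with peaks. The comparison therefore describes the windows and does not single out host genes. Among the 35699 tiles with a DMSO Pol I peak, 1.45% also held a BMH-21 Pol I peak, 9.14% a BMH-21 Pol II peak and 26.3% a DMSO Pol II peak.

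**Figure D2:**
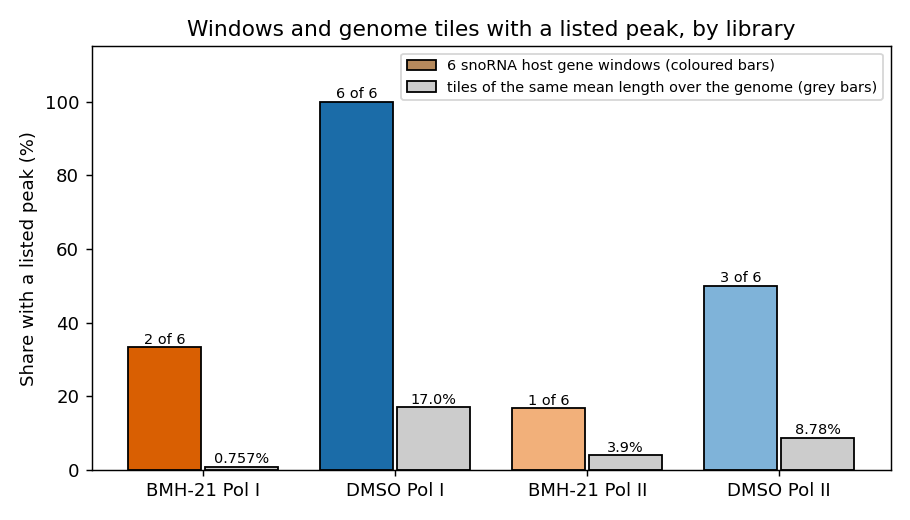
Share of the 6 host gene windows (coloured bars) and of genome tiles of the same mean length (grey bars) with at least 1 listed peak, in percent, for each library. The window bars stand at 2, 6, 1 and 3 of 6 windows, and each is above its tile bar. For both Pol II libraries this does not hold without flanks, at 0 of 6 gene windows against 1.46% (BMH-21) and 3.62% (DMSO) of shorter tiles. At such low shares 0 of 6 shows no direction. The genes were chosen with earlier results of these data known, so the bars are a description only.

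As a share of each list, the windows held 0.155% for Pol I after BMH-21 (exact Clopper-Pearson 95% interval 0.032 to 0.453) and 0.0282% for Pol I in DMSO (interval 0.0146 to 0.0493). The share was thus larger in the shorter list. The intervals overlap and cover counting error over peaks only, taken as independent although 2 of the 3 BMH-21 Pol I peaks share the SNHG3 window. The lists leave out different shares of their numbered peaks, so these shares do not compare the treatments. For Pol II the shares were 0.0173% in BMH-21 (interval 0.0021 to 0.0626) and 0.0104% in DMSO (interval 0.00215 to 0.0304), which overlap as well.

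SNHG3, the host of the U17 snoRNAs that act in cleavage of the ribosomal RNA precursor, carried peaks in 3 of the 4 lists. After BMH-21, Pol I had a peak on chromosome 1 at 28833793 to 28834176 (384 bp, score 251.09) and one at 28835013 to 28835270 (258 bp, score 66.82). In DMSO, Pol I had a peak at 28836116 to 28838391 (2276 bp, score 1105.75) and one at 28838733 to 28839077 (345 bp, score 63.02). The wide DMSO peak had rank 3 by score among all 42547 of its list, and a score that high was reached in 3 of the 35699 tiles with a DMSO Pol I peak. The first BMH-21 peak ranked 91 of 1932 in its own list. Scores are the authors' own value per peak, are not stated to be on 1 scale in the different libraries, and are ranked within a list only.

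Where the listed Pol I peaks lay in SNHG3 can be described, but that the treatments share no place is a property of the lists and not a result on SNHG3. The BMH-21 peaks sat 1.79 to 2.18 kb and 3.01 to 3.27 kb from the 5′ edge of the gene window. The DMSO peaks sat 4.12 to 6.39 kb and 6.73 to 7.08 kb from it, over the 3′ part of the window and beyond its end. The nearest BMH-21 and DMSO peaks were 845 bp apart. Each list leaves out running numbers of its peak names, the BMH-21 lists most of theirs, so numbered peaks exist that are not listed. No number was skipped between the paired Pol I peaks of either treatment at SNHG3, whereas 2 DMSO Pol I numbers were skipped in the 140 kb before the wide peak, a stretch that covers the place of the BMH-21 peaks. Whether DMSO Pol I had an unlisted peak in the 5′ part of SNHG3 is therefore not known.

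In the SNHG3 window, Pol II peaks were listed after BMH-21 and none in DMSO, but a DMSO Pol II peak lay 857 bp outside the window, 2114 bp from the first BMH-21 peak. The BMH-21 peaks lay outside the gene window, at 28828258 to 28828475 (218 bp, score 54.22) and 28829503 to 28829726 (224 bp, score 53.28), at -3.74 to -3.52 kb and -2.5 to -2.27 kb from the 5′ edge, which is before the gene. Both were narrow and low, with 27.8% and 22.2% of their list scoring lower. In DMSO, the stretch without a listed Pol II peak around SNHG3 ran over 38.9 kb and skipped 1 number. The first BMH-21 Pol I peak was 4066 bp from the nearest BMH-21 Pol II peak.

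SNHG5, the host of the U50 snoRNAs, was the other gene with a Pol I peak in both treatments. The BMH-21 Pol I peak lay on chromosome 6 at 86387824 to 86388049 (226 bp, score 52.9). The DMSO Pol I peak lay at 86388601 to 86388933 (333 bp, score 73.84). Both were weak within their lists, with 14.0% scoring lower in the BMH-21 list and 30.9% in the DMSO list. They were 551 bp apart, with the DMSO peak 0.07 to 0.4 kb and the BMH-21 peak 0.95 to 1.18 kb from the 5′ edge, which is known to the nearest kb. At SNHG5, as at SNHG3, the BMH-21 Pol I peaks lay within the gene window. The order along the gene was reversed between them, with the BMH-21 peaks before the DMSO peaks in SNHG3 and after the DMSO peak in SNHG5. Neither BMH-21 nor DMSO had a listed Pol II peak in the SNHG5 window, but a DMSO Pol II peak lay 451 bp outside it on the 3′ side, and the skipped Pol II numbers up to the neighbouring listed peaks were 13 over 1520 kb in BMH-21 and 4 over 238 kb in DMSO.

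SNHG8, the host of SNORA24, had the densest group of Pol I peaks. The 4 DMSO Pol I peaks lay on chromosome 4 at 119199543 to 119200420 (score 165.82), 119200525 to 119201147 (score 64.38), 119201356 to 119202572 (score 305.26) and 119202751 to 119203187 (score 69.15). Together they covered 3155 bp, 24.3% of the window, and the gaps between them were 0.104, 0.208 and 0.178 kb with no number skipped. Of tiles with a DMSO Pol I peak, 0.798% held at least 4. The group ran from 0.54 to 4.19 kb from the 5′ edge, and RefSeq places PRSS12, which encodes the protease neurotrypsin, next to SNHG8 on this side. SNHG8 itself is 1062 bp long in RefSeq, so most of the 3155 bp under these peaks cannot lie on it. A DMSO Pol II peak at 119197695 to 119198445 (751 bp, score 75.82) lay before the gene, at -1.31 to -0.56 kb from the 5′ edge and 1097 bp from the nearest of the DMSO Pol I peaks. The nearest BMH-21 Pol I peak was 2754590 bp from the last DMSO peak, and 27 BMH-21 Pol I numbers were skipped in the 7280 kb around the window.

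SNHG1, the host of SNORD22 and of several methylation guides, had 3 DMSO Pol I peaks and 1 DMSO Pol II peak. The Pol I peaks lay on chromosome 11 at 62618380 to 62619171 (792 bp, score 279.56), 62622340 to 62622744 (405 bp, score 83.29) and 62627846 to 62628607 (762 bp, score 151.19). The highest was at the 3′ edge of the gene window, and the last lay before the gene, at -4.61 to -3.84 kb from the 5′ edge, on the SLC3A2 side. The Pol II peak at 62627430 to 62628750 (1321 bp, score 232.92) contained this last Pol I peak, and 92.5% of its list scored lower. Between the middle and the last Pol I peak, over 5.1 kb that include the 5′ edge of SNHG1, 2 DMSO Pol I numbers were skipped, so 2 numbered peaks there are not listed. Tiles with a DMSO Pol I peak held at least 3 of them in 3.7% of cases. In BMH-21, 12 Pol I numbers were skipped in the 1050 kb around the window and 20 Pol II numbers in the 94.5 kb around it.

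GAS5, named for its transcript's accumulation in growth-arrested cells and known as a decoy for the glucocorticoid receptor, had 1 DMSO Pol I peak and no listed peak inside its gene window. The peak lay on chromosome 1 at 173831522 to 173832531 (1010 bp, score 259.56), 5.47 to 6.48 kb from the 5′ edge and so past the 3′ edge of the gene window, where 91.0% of its list scored lower. A weak DMSO Pol II peak at 173827763 to 173828066 (score 52.4) reached 66 bp into the window at its far end, 3455 bp from the Pol I peak. A BMH-21 Pol II peak lay 772 bp beyond it, outside the window. On the other side of the Pol I peak, 2 DMSO Pol I numbers were skipped over 158 kb, a stretch that contains the whole GAS5 window up to its 5′ edge.

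SNHG12, the host of SNORA16A, SNORA44, SNORA61 and SNORD99, had a single listed peak. It was a DMSO Pol I peak on chromosome 1 at 28908218 to 28908688 (471 bp, score 126.08), 0.31 to 0.78 kb from the 5′ edge, with 63.7% of its list scoring lower. The DMSO Pol I numbering skipped no number in the 89.3 kb between the neighbouring listed peaks, so no other numbered DMSO Pol I peak lay in this window. For the other libraries, 3 BMH-21 Pol I numbers over 1360 kb, 18 BMH-21 Pol II numbers over 167 kb and 5 DMSO Pol II numbers over 127 kb were skipped around it. SNHG12 and SNHG3 lie 67 kb apart and on opposite strands.

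Across the genes, the highest DMSO Pol I score of a window ran from 73.84 at SNHG5 over 126.08 at SNHG12, 259.56 at GAS5, 279.56 at SNHG1 and 305.26 at SNHG8 to 1105.75 at SNHG3. Of tiles with a DMSO Pol I peak, 73.6% reached the score of SNHG5, 41.5% that of SNHG12, 11.1% that of GAS5, 9.34% that of SNHG1 and 7.3% that of SNHG8. GAS5, SNHG1 and SNHG8 stood close together, and SNHG3 stood apart. How far scores vary between replicate libraries was not measured. A DMSO Pol I peak lay at least partly in the first kb from the 5′ edge at SNHG12, SNHG5 and SNHG8, the 3 genes with a pyrimidine run. The SNHG8 peak reached from 0.54 to 1.42 kb. SNHG1, without a run, had a DMSO Pol I peak at 1.26 to 1.66 kb, which edges known to 1 kb do not set apart. The peak of GAS5 and the highest DMSO Pol I peaks of SNHG3, SNHG1 and SNHG8 itself lay at or past the 3′ part of the gene window. At SNHG3, GAS5 and SNHG1, 2 DMSO Pol I numbers each were skipped over the stretches (140, 158 and 5.1 kb) that hold the 5′ edge. An unlisted peak may therefore lie near the 5′ edge of these genes, and the run rests on 1 annotated start per gene. With 6 genes and edges known to 1 kb, these positions are a description, and a link to the pyrimidine run was not tested.

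**Figure D3:**
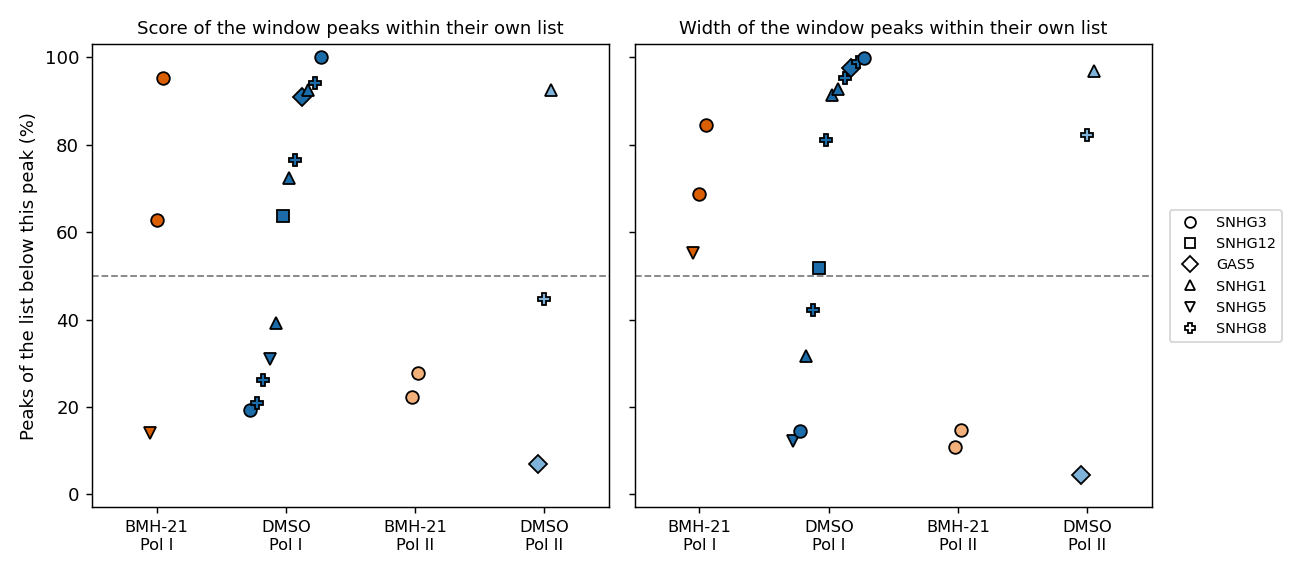
Score (left) and width (right) of the 20 window peaks within their own lists. The y axis is the percent of peaks of the list that are lower or narrower, the x axis the library, each symbol a gene, and the dashed line the middle of the list. The DMSO Pol I peaks spread in score from 19.3% (a narrow SNHG3 peak) to the top of their list, and both BMH-21 Pol II peaks lie between 10.8% and 27.8% on the 2 scales.

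As a group, the window peaks of Pol I were not uniformly strong. At or above the median score of their list were 2 of 3 peaks in BMH-21 and 7 of 12 in DMSO. At or above the median width were 3 of 3 BMH-21 peaks and 8 of 12 DMSO peaks. The median width in the windows was 258 bp for BMH-21 Pol I, against 216 bp in its list, and 692.5 bp for DMSO Pol I, against 464 bp. For Pol II, 0 of 2 BMH-21 peaks and 1 of 3 DMSO peaks reached the median score of their list.

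Within a treatment, peaks of both antibodies coincided at 1 place, upstream of SNHG1 in DMSO. Overlapped by Pol II were 0 of 3 BMH-21 Pol I window peaks (exact interval 0 to 70.8%), against 9.52% of that list, and 1 of 12 DMSO Pol I window peaks (8.33%, interval 0.211 to 38.5), against 14.0% of that list. Overlapped by Pol I were 0 of 2 BMH-21 Pol II window peaks (interval 0 to 84.2%), against 1.61% of that list, and 1 of 3 DMSO Pol II window peaks (33.3%, interval 0.84 to 90.6), against 20.5% of that list. Each interval includes the share of its list, but intervals on 2 or 3 peaks include most possible shares, so nothing is concluded from this. The intervals also treat peaks as independent, although several share a window. Overlap with numbered but unlisted peaks could not be counted.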

How the data were processed

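Per the file headers, the authors' deposited files are peak lists, 1 per ChIP library, with chromosome, start, stop, a numbered name and a score that is headed as a p-value and whose scale is not stated. The score is used only to rank or filter peaks within a list. The build was hg19 and the tools named were deepTools 3.5.4, Bowtie2 2.2.1 and CASAVA 1.8.2, per the submitters' processing notes. Peak names begin with MACS, a peak caller, but its settings, the use of input and the selection of listed peaks were found in none of the sources used here. Peaks appear to be called per library, so depth may set how many are called. How many are listed depends on the selection as well, since many numbered peaks are unlisted. The 2 input libraries were not analysed here. Each group, taken from the sample titles, has 1 library.

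Peaks sharing 1 bp or more with a window were taken, and starts were moved to the first base as browsers show it. Overlap of antibodies meant 1 bp in common. Skipped numbers were counted between consecutive listed peaks. A gene's direction, nested snoRNAs and neighbours came from RefSeq tables on GRCh38.p14, whose positions were not set against hg19. All 6 genes and every window peak are named by rule. The members and the list of other host genes (15 of 19 matched) were chosen with earlier results of these data known. Overlap and coverage counts were tested on simulated data. Python 3.11.15, NumPy 2.4.6, pandas 2.3.3, SciPy 1.17.1 and matplotlib 3.10.9 were used.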

Additional observations from a re-analysis of the deposited data

How the results depend on the processing

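For 20 results, 113 values were recomputed under other settings. Of these, 72 were within 1.5 times the count or length reported, or inside the interval of the share reported, and 41 were not. Counts of 1 or 2 can pass that limit with a change of 1, and the cause of each change is the construction of the setting (fewer or shorter stretches, or fewer peaks). BMH-21 Pol I peaks of at least 300 bp numbered 1, in 1 window over 384 bp, and at the list's median score or above they lay in 1 window. DMSO Pol I peaks at or above the median score numbered 7, and without flanks they covered 5411 bp. BMH-21 Pol II had 0 peaks in 0 windows over 0 bp without flanks, with 2 kb flanks, at the median score and at 300 bp, and 5 peaks in 3 windows over 1325 bp with 10 kb flanks. DMSO Pol II had 0 peaks in 0 windows over 0 bp without flanks, 1 peak in 1 window over 751 bp with 2 kb flanks, 6 peaks in 5 windows over 3811 bp with 10 kb flanks, and 1 peak in 1 window over 1321 bp at the median score. Without flanks, Pol II overlapped 0% of the DMSO Pol I peaks left, and at the median score Pol I overlapped 100% of the DMSO Pol II peaks left (1 peak). Tiles as long as the gene windows held a peak in 0.26% (BMH-21 Pol I), 6.25% (DMSO Pol I), 1.46% (BMH-21 Pol II) and 3.62% (DMSO Pol II) of cases. Leaving out each gene in turn gave 1 to 3 BMH-21 Pol I, 8 to 11 DMSO Pol I, 0 to 2 BMH-21 Pol II and 2 to 3 DMSO Pol II peaks. Without SNHG3, BMH-21 kept 1 peak for Pol I and 0 for Pol II. No paired analysis was possible because each group has 1 library and no result comes from a test. Unknown read depth and unlisted numbered peaks limit what an empty window shows.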
